A study of Mus musculus with 12 samples.

Results

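Voltage-gated calcium, sodium and hyperpolarisation-activated (HCN) channel genes were followed with age in the ventral tegmental area (VTA) of the mouse, a midbrain region that holds dopaminergic neurons. The members were all probe sets annotated to exactly 1 gene whose symbol begins with Cacna, Cacnb or Cacng, or is Scn or Hcn followed by a number. This gave 87 of 45037 tested probe sets, for 37 of 18193 genes. The genes were 9 calcium channel pores, 4 alpha2delta, 3 beta and 8 gamma subunits, 8 sodium channel pores, 3 sodium channel beta subunits and 2 HCN channels. Probe sets that map to these families through several genes were not analysed here.

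The mice were wild-type C57BL/6 (C57 in the labels) and 2 months (young), 10 months (middle-aged) or 18 months (late middle-aged) old. Whole VTA was dissected, RNA from 5 mice was pooled on each array, and 4 arrays were made for each age. Young arrays 3 and 4 were nearly the same (correlation 0.998, against 0.967 to 0.996 in the 17 other pairs of 1 age, and a median difference over the members of 0.079 against 0.151 to 0.511). They were therefore averaged and counted as 1 sample, which leaves 3 samples at 2 months and 4 at each of the later ages. Values are log2 expression values after RMA normalisation, changes are differences of log2 means with the standard error (SE) of the fit, and calls required an adjusted p under 0.05 together with a change over 1.3-fold. A probe set is a group of probes for a stretch of a transcript, so values of different probe sets do not rank genes by abundance, and probe sets of 1 gene can follow different transcript forms.

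Voltage-gated calcium and sodium channels consist of a large pore-forming subunit that opens on depolarisation, with auxiliary subunits that carry the pore to the membrane and tune its gating. Sodium channels start and spread action potentials, calcium channels couple them to transmitter release, dendritic signals and gene expression, and HCN channels open on hyperpolarisation and pass a depolarising current. Midbrain dopaminergic neurons fire without synaptic input and are known for the use of these 3 kinds of channel in that pacemaking.

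Promoters are shown for the called genes with the largest rise and fall, Cacnb2 and Scn9a, and for Cacna1b, the member called at both later ages. All 3 genes lie on chromosome 2. Each window runs from 250 bases before to 50 bases after a transcript start in RefSeq (GRCm38.p6), and capitals mark GGGCGG, the core of the GC box, or its reverse complement CCGCCC. For Cacnb2 the table held 2 starts.
Cacna1b (chr2:24763103-24763402, minus strand): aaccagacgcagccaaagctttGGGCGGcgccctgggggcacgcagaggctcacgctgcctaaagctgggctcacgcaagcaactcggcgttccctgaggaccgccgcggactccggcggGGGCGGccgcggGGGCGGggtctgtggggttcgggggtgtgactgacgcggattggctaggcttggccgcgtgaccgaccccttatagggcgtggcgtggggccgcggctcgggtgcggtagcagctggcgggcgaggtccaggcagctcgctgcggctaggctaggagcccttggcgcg
Cacnb2, first start (chr2:14604056-14604355, plus strand): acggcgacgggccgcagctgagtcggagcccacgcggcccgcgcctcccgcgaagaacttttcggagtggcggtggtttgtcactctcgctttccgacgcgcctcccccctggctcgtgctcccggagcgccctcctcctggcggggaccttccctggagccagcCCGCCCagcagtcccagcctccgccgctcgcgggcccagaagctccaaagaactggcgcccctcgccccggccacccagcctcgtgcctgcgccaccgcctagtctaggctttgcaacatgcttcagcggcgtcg
Cacnb2, second start (chr2:14823842-14824141, plus strand): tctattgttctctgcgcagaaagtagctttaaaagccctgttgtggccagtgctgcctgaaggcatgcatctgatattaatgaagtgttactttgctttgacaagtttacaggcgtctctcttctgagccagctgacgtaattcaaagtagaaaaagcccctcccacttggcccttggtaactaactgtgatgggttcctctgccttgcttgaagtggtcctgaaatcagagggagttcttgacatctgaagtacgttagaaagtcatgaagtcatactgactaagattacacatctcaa
Scn9a (chr2:66634913-66635212, minus strand): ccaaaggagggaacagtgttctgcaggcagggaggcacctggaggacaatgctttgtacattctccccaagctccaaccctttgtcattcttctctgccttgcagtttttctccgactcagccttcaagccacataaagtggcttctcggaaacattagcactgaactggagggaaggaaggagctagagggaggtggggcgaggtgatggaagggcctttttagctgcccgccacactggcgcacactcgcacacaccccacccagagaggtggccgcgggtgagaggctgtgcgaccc
The windows of Cacna1b and of the first start of Cacnb2 were rich in CG dinucleotides (35 in each), with 3 and 1 copies of the motif. The second start of Cacnb2 held 4 CG dinucleotides and Scn9a 9, and neither held the motif. Windows were listed for 28 of the 37 genes (38 windows), and 15 of them (39.5%) held the motif on either strand, against 35.7% of 32851 windows in the table. The median number of CG dinucleotides was 10 in the member windows and 7 in all windows. Cacna1a, Cacna1g, Cacna1h, Cacna2d4, Cacng1, Cacng4, Hcn3, Scn3a and Scn3b had no entry.

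At 18 against 2 months, 9 member probe sets of 8 genes were called, 3 higher and 6 lower. The beta subunit Cacnb2 (both probe sets) and the gamma subunit Cacng3 rose, while probe sets of the calcium channel pores Cacna1b and Cacna1h, the gamma subunits Cacng2 and Cacng8, the sodium channel pore Scn9a and the sodium channel beta subunit Scn2b fell. These were 10.3% of the members, against 7.46% of all probe sets (4.55% higher and 2.91% lower). When a gene was represented by its brightest probe set, the one with the highest mean over the arrays, Cacnb2, Cacng3 and Cacng8 were called, which is 8.11% of the 37 genes against 8.82% of all genes. At least 1 called probe set was found in 21.6% of the member genes against 14.6% of all genes. The members had 87 probe sets for 37 genes, and all genes had 34945 for 18193. A member gene thus had more probe sets on average that could be called, and the part of this in the 21.6% was not tested.

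The sign of the change was negative in 59 of the 87 members (67.8%), against 59.6% of all probe sets, and the median change was −0.15 against −0.06. The values at 18 and 2 months did not overlap in 22 members (25.3%, of which 6 higher and 16 lower), against 23.6% of all probe sets. Of the members, 12 were dim, that is, under the lower quartile of each array, among them the single probe sets of Cacna1s, Cacng1 and Scn10a and both of Cacng6, and these give little information on change. The other 75 included all 9 called probe sets.

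**Figure D1:**
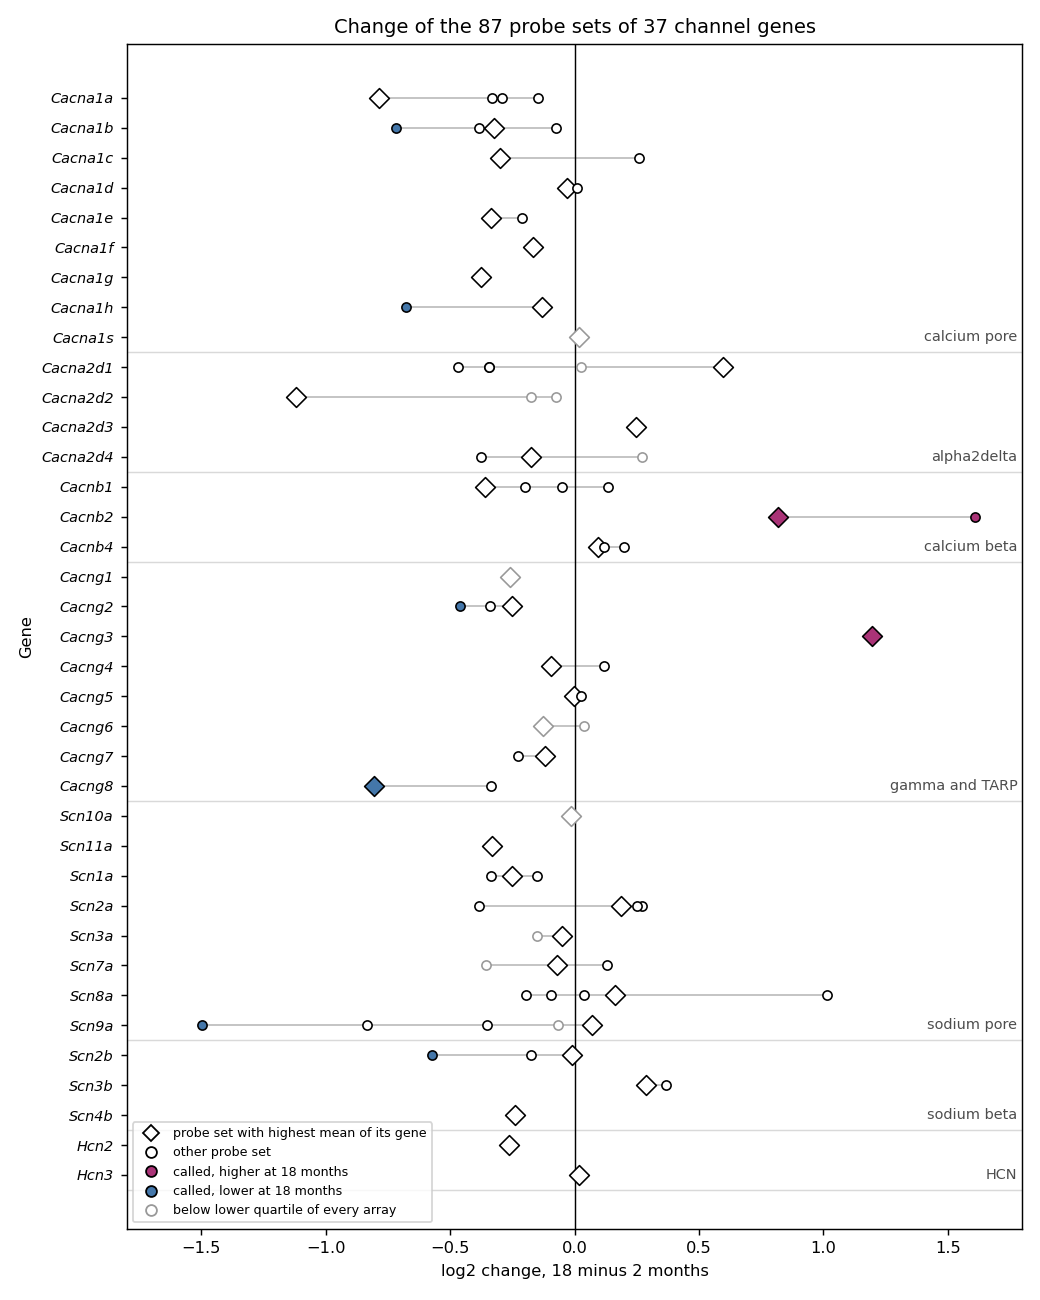
Log2 change at 18 minus 2 months (x axis) of the 87 probe sets of the 37 channel genes (y axis, grouped by role). Diamonds are the probe set with the highest mean of its gene and circles the others, purple marks the 3 called as higher at 18 months and blue the 6 called as lower, and grey outlines mark probe sets that are dim on all arrays. Cacnb2 extends farthest to the right (1.61) and Scn9a farthest to the left (−1.50).

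Controls on the arrays varied with age in 2 ways. The first was signal at the 3′ end minus signal at the 5′ end of Actb and Gapdh, which can depend on how far the label reached along transcripts. It was 1.98 ± 0.24 at 18 months (SD, n = 4) and 2.15 ± 0.34 at 10 months (SD, n = 4), against 3.47 ± 0.17 at 2 months (SD, n = 3, two-sided exact permutation p = 0.0286 at both later ages, the lowest p possible with 4 against 3 samples). What set the ages apart in this measure was not tested. The added poly-A controls had means of 6.48 ± 0.30 at 18 months and 6.03 ± 0.08 at 10 months, against 5.75 ± 0.08 at 2 months (SD, same n, exact permutation p = 0.0286 for each). No later sample overlapped with a young one in either measure, so that neither can be told apart from age between 2 months and the later ages. When the 3′ minus 5′ measure was added to the fit, no member was called, and neither was any other of the 45037 probe sets. The median SE of the 9 probe sets called without it was 0.480 in place of 0.186, and Cacnb2 and Cacng3 changed sign. Adding the poly-A mean in its place left no member and no other probe set called either (median SE 0.384). Between 18 and 10 months the 3′ minus 5′ means differed by −0.17 (exact permutation p = 0.486) and the poly-A means by 0.45 (exact permutation p = 0.0286).

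Labels and tissue were compared through marker genes. The dopaminergic genes Th, Slc6a3, Ddc and Slc18a2 had means between 12.1 and 14.2 at every age, and Nr4a2 (11.65 to 12.11) and Pitx3 (8.20 to 8.61) were not called. The mean of 6 dopaminergic markers was 12.4 to 12.6 at 18 months and 12.1 to 12.3 at 2 months, with Th called as higher. The level of 8 general neuronal markers was 12.15 to 12.48 at 18 months and 11.62 to 11.99 at 2 months, with Snap25, Syt1 and Stmn2 called as higher and Rbfox3 as lower. Of 6 microglial markers 3 were called as higher, P2ry12 (1.58), Cd68 (1.44) and Tmem119 (0.51), and the list mean was 8.63 to 8.93 at 18 months and 8.04 to 8.30 at 2 months. The mean of 6 astrocyte markers was 11.15 to 11.50 at 18 months and 11.04 to 11.09 at 2 months with no call. These 4 lists did not overlap between 18 and 2 months. The lists of cerebellar cells (6.72 to 6.80 against 6.86 to 6.92) and sensory neurons (4.12 to 4.26 against 4.30 to 4.45) did not overlap either, and were lower at 18 months. Those of GABAergic and glutamatergic neurons, oligodendrocytes and their precursors, endothelium, choroid plexus and skeletal muscle overlapped. Of all single probe sets, 23.6% did not overlap between these ages. Of the 3 measured sensory neuron markers, Scn10a and Trpv1 were dim on all arrays, and Scn11a, itself a member, averaged 5.09 at 18 months and 5.42 at 2 months. In pooled tissue, fewer cells of a type and less RNA per cell cannot be told apart, and the part of these marker levels in the channel results was not tested.

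Among the calcium channel pores, 16 of 19 probe sets had a negative change at 18 against 2 months, with a median of −0.29, and 2 were called, both lower. Cacna1b encodes the pore of N-type channels, which trigger transmitter release at many terminals. Its probe set 1460608_at read 10.72, 10.70 and 10.44 at 2 months, 9.71, 9.49, 10.23 and 9.52 at 10 months, and 9.96, 9.92, 9.75 and 9.96 at 18 months. All later samples lay below all young ones, and sample 3 at 10 months came closest to them. The fall was 1.64-fold at 18 against 2 months (−0.72 ± 0.17 SE, adjusted p = 0.0273) and was also called at 10 against 2 months (−0.88 ± 0.17, adjusted p = 0.0408), and these comparisons share the young samples. The call at 10 against 2 months was lost in 9 of 12 fits with a single array left out (adjusted p up to 0.236), with the replicate block (adjusted p = 0.0809), with only these 2 ages fitted (adjusted p = 0.136), with the intensity trend (adjusted p = 0.0581) and with either covariate. The other probe sets of Cacna1b gave −0.32 ± 0.23 (1436602_x_at, the brightest), −0.38 ± 0.27 (1439612_at) and −0.07 ± 0.17 (1425812_a_at), none of them called. With single arrays left out the change of 1460608_at at 18 against 2 months lay between −0.74 and −0.67 and its adjusted p between 0.00434 and 0.139.

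Cacna1h encodes a pore of T-type channels, which open at low voltage and shape burst firing. Its probe set 1427607_at read 6.75, 7.10 and 6.77 at 2 months, 6.48, 6.53, 6.55 and 6.33 at 10 months, and 6.06, 6.45, 6.003 and 6.28 at 18 months. The young samples lay above all others, and 1 sample at 18 months fell within the range at 10 months. The fall was 1.60-fold (−0.68 ± 0.14, adjusted p = 0.0151), with −0.40 at 10 against 2 months (adjusted p = 0.163). The brighter probe set of Cacna1h, 1422710_a_at, gave −0.13 ± 0.22. With single arrays left out the change of 1427607_at lay between −0.76 and −0.56, and its adjusted p was 0.0595 at the highest.

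The other pores had no call at 18 against 2 months. For Cacna1a, which encodes the P/Q-type pore that drives release at most fast synapses, the brightest probe set read 8.20, 7.49 and 7.13 at 2 months and 6.89, 6.93, 6.70 and 6.77 at 18 months. These values did not overlap, but the young samples were widely spread and the difference missed the threshold (−0.79 ± 0.23, adjusted p = 0.0603), with 3 further probe sets between −0.33 and −0.15. For the L-type pores of neurons the brightest probe sets gave −0.30 ± 0.17 (Cacna1c) and −0.03 ± 0.11 (Cacna1d, the subunit linked to pacemaking of dopaminergic neurons, 95% interval −0.26 to 0.20). The other probe set of Cacna1c, 1421297_a_at, gave 0.26 ± 0.15, so the probe sets of this gene differed in sign. Cacna1d read 8.05 ± 0.06 at 2 months (SD, n = 3), 7.78 ± 0.07 at 10 months and 8.02 ± 0.15 at 18 months (SD, n = 4 each), lowest at the middle age without overlap, though neither step was called (10 against 2 months adjusted p = 0.234, 18 against 10 months adjusted p = 0.847). The R-type pore Cacna1e gave −0.34 ± 0.16, the T-type pore Cacna1g −0.37 ± 0.19 and the retinal pore Cacna1f −0.17 ± 0.10. The skeletal muscle pore Cacna1s, dim on all arrays, gave 0.02 ± 0.13.

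The alpha2delta subunits raise the number of calcium channels at the membrane, and those encoded by Cacna2d1 and Cacna2d2 bind gabapentin. None of their 12 probe sets was called, and 8 were negative (median −0.17). Cacna2d2 had the largest negative change among the auxiliary genes without a call. It read 11.38, 12.16 and 11.15 at 2 months and 9.84, 10.60, 10.39 and 10.95 at 18 months, and the fitted difference was −1.12 ± 0.32 (95% interval −1.81 to −0.43, adjusted p = 0.0531). The groups did not overlap, and the probe set was called with the 12 arrays counted separately or with dim probe sets left out. Its other 2 probe sets were dim on all arrays. Cacna2d1 had the largest positive change of those genes (0.59 ± 0.24, adjusted p = 0.165). It read 9.67, 10.22 and 9.90 at 2 months and 10.59, 10.64, 10.39 and 10.49 at 18 months, again without overlap. Its 3 next probe sets gave −0.47 to −0.34, so the probe sets of Cacna2d1 differed in sign. The brightest probe sets of Cacna2d3 and Cacna2d4 gave 0.25 ± 0.12 and −0.18 ± 0.21.

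The calcium channel beta subunits bind the pore inside the cell and govern its surface level and inactivation. Of their 9 probe sets, 3 were negative, the median was 0.12 and both probe sets of Cacnb2 were called as higher. The brightest of them, 1456401_at, read 7.79, 8.07 and 8.21 at 2 months, 8.99, 7.94, 8.79 and 8.43 at 10 months, and 8.51, 8.94, 8.90 and 9.01 at 18 months. The other, 1452476_at, read 4.94, 5.25 and 5.37 at 2 months, 6.90, 4.94, 7.04 and 5.94 at 10 months, and 6.17, 6.94, 6.97 and 7.10 at 18 months. In both, all 18 months samples lay above all young ones, and among the 10 months samples number 2 stayed in the young range or at its lower edge while numbers 1 and 3 were high. The rise was 1.76-fold for 1456401_at (0.82 ± 0.23, adjusted p = 0.0492) and 3.05-fold for 1452476_at (1.61 ± 0.43, adjusted p = 0.0423). With the 3′ minus 5′ covariate the values were −0.51 and −0.89, and with single arrays left out the adjusted p reached 0.225 and 0.189. Both calls were lost without young arrays 1 or 2, without array 4 at 10 months, and without any of arrays 2 to 4 at 18 months. That of 1456401_at was also lost with the replicate block (adjusted p = 0.0703) and with the intensity trend and robust prior (adjusted p = 0.0545). Leaving out 10 months array 3 and young array 2 together ended the call of 1456401_at too. The brightest probe sets of Cacnb1, first known from muscle, and Cacnb4, a neuronal form, gave −0.36 ± 0.22 and 0.09 ± 0.22.

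**Figure D2:**
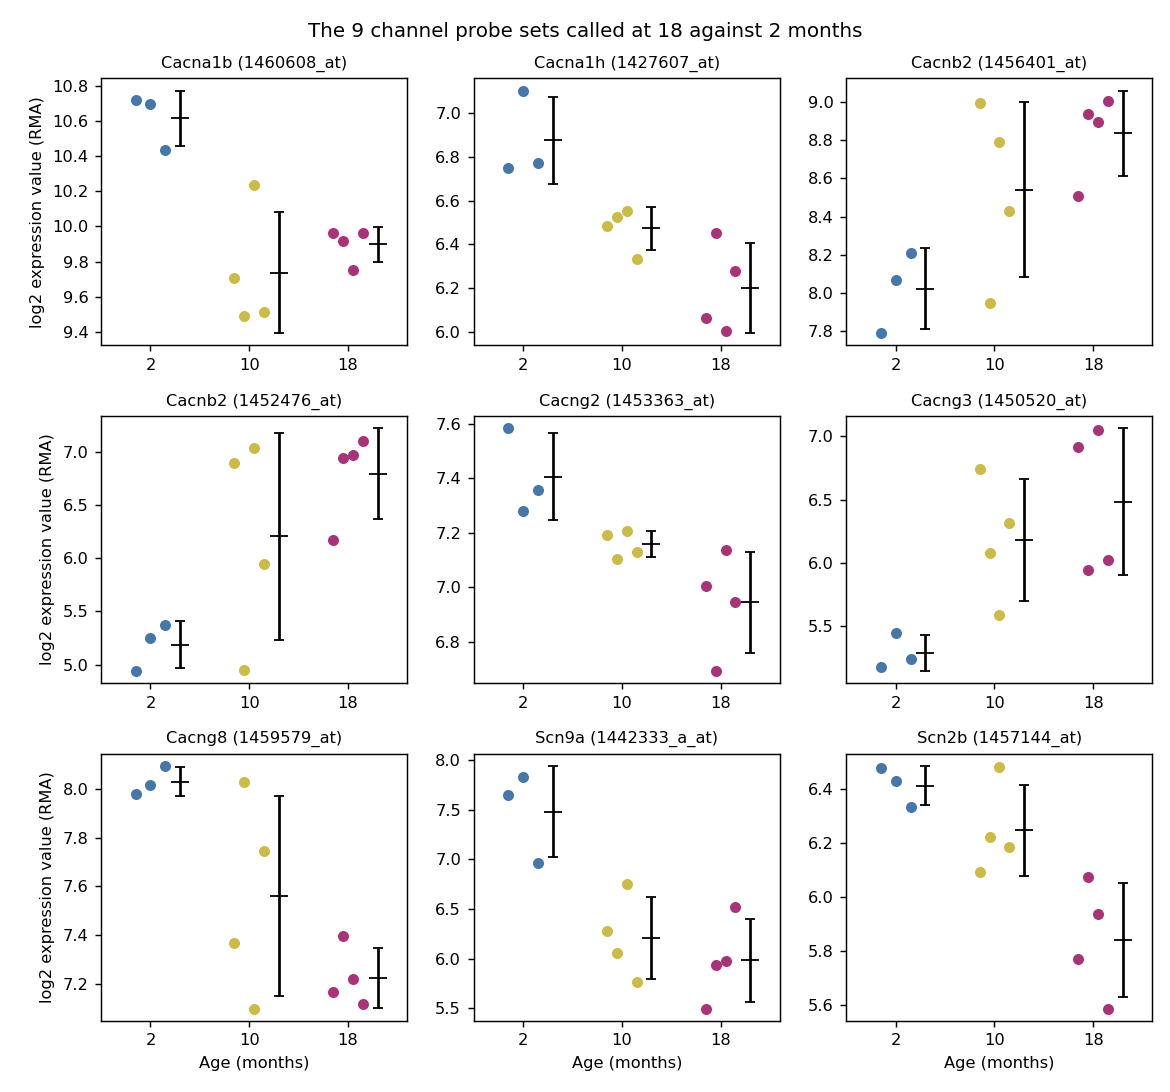
Log2 expression values (RMA, y axis) of the 9 channel probe sets called at 18 against 2 months, by age in months (x axis). Points are samples (3 at 2 months, with young arrays 3 and 4 averaged, and 4 at each later age), and the bar beside each group is the mean and SD. In each panel the 18 months samples lie wholly above (Cacnb2, Cacng3) or below (the other 6 genes) those of 2 months, and the 10 months samples of Cacnb2 1452476_at spread from 4.94 to 7.04.

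Most genes of the gamma family that act in brain encode TARPs, which bind AMPA-type glutamate receptors, carry them to synapses and slow their closing, and have little part in calcium channels. Of the 15 probe sets of the 8 gamma genes, 11 were negative (median −0.13), with 1 called as higher and 2 as lower. Cacng3, measured by 1 probe set, read 5.17, 5.44 and 5.24 at 2 months, 6.74, 6.07, 5.59 and 6.32 at 10 months, and 6.91, 5.94, 7.05 and 6.02 at 18 months. Every later sample lay above the young ones, and those of 18 months formed a higher and a lower pair. Cacng3 rose 2.29-fold at 18 against 2 months (1.20 ± 0.31, adjusted p = 0.0381), with 0.89 at 10 against 2 months (adjusted p = 0.172). With the 3′ minus 5′ covariate the value was −0.08, and with single arrays left out it lay between 1.007 and 1.38 (adjusted p up to 0.168).

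Cacng8 encodes a TARP known from hippocampus. Its brightest probe set, 1459579_at, read 7.98, 8.02 and 8.09 at 2 months, 7.37, 8.03, 7.10 and 7.75 at 10 months, and 7.16, 7.40, 7.22 and 7.11 at 18 months. The young samples lay close together above those of 18 months, and the 10 months samples spanned the gap between them. Cacng8 fell 1.75-fold at 18 against 2 months (−0.81 ± 0.19, adjusted p = 0.0258), and its other probe set, 1451864_at, gave −0.34 ± 0.14 (adjusted p = 0.174). With the 3′ minus 5′ covariate the value of 1459579_at was −0.0029 and with the poly-A covariate −1.07, and with single arrays left out its adjusted p reached 0.108.

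Cacng2 encodes stargazin, the first TARP found. Probe set 1453363_at read 7.58, 7.28 and 7.36 at 2 months, 7.19, 7.10, 7.21 and 7.13 at 10 months, and 7.004, 6.69, 7.14 and 6.94 at 18 months, with no overlap between young samples and the others. It fell 1.38-fold (−0.46 ± 0.12, adjusted p = 0.0404). The call was the least stable of the 9, kept when 5 of 12 single arrays were left out and lost after median centring of the arrays. The brighter probe sets gave −0.25 ± 0.20 (1440210_at) and −0.34 ± 0.25 (1420596_at). The 5 gamma genes without a call gave changes from −0.26 ± 0.11 (the muscle gene Cacng1, dim on all arrays) to −0.0006 ± 0.14 (Cacng5) at their brightest probe sets.

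The genes of Cacng7, Cacng8 and Cacng6 are neighbours on chromosome 7 with no other gene of the RefSeq table between them, as are Cacng1, Cacng4 and Cacng5 on chromosome 11. Within the first group the brightest probe sets gave −0.12 ± 0.23 (Cacng7), −0.81 ± 0.19 (Cacng8, called) and −0.13 ± 0.09 (Cacng6). Within the second none was called.

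The sodium channel pores were measured by 24 probe sets, of which 16 were negative (median −0.08) and 1 was called. Scn9a encodes a pore best known from pain-sensing neurons, where it amplifies small depolarisations. Its probe set 1442333_a_at read 7.65, 7.83 and 6.96 at 2 months, 6.28, 6.05, 6.75 and 5.77 at 10 months, and 5.50, 5.94, 5.98 and 6.52 at 18 months. All young samples lay above all later ones. Scn9a fell 2.82-fold here (−1.50 ± 0.28, adjusted p = 0.0122), the largest fall among the members, with −1.27 at 10 against 2 months (adjusted p = 0.0540).

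The other probe sets of Scn9a did not move by the same amount. Probe set 1442809_at read 8.12, 8.01 and 8.04 at 2 months, 7.67, 7.68, 7.89 and 7.66 at 10 months, and 7.75, 7.72, 7.68 and 7.66 at 18 months, again without overlap, but its change was under 1.3-fold (−0.35 ± 0.09, adjusted p = 0.0435). Probe set 1457819_at gave −0.83 ± 0.28 (adjusted p = 0.0956) without overlap. The brightest, 1442810_x_at, gave 0.07 ± 0.14 (95% interval −0.24 to 0.38), and by its suffix some of its probes can bind other transcripts. The last, 1421660_at, was dim on all arrays. The call of 1442333_a_at held in 11 of 12 fits with a single array left out and was lost without young array 1 (adjusted p = 0.0790).

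Scn3a and Scn2a are next to each other on chromosome 2, and Scn1a, Scn9a and Scn7a follow in a row after 3 further genes. Besides Scn9a none of this cluster was called. The brightest probe sets gave 0.19 ± 0.17 for Scn2a, a main pore of axons in brain, −0.25 ± 0.32 for Scn1a, known from inhibitory neurons, −0.05 ± 0.28 for Scn3a, prominent in the embryonic brain, and −0.07 ± 0.15 for Scn7a, an atypical member found in glia and neurons.

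Scn8a, the pore of nodes of Ranvier and axon initial segments, gave 0.16 ± 0.25 at its brightest probe set. A weaker one, 1451894_a_at, read 5.40, 6.18 and 5.91 at 2 months, 6.87, 6.11, 7.12 and 6.27 at 10 months, and 6.32, 6.66, 7.11 and 7.30 at 18 months. The 18 months samples lay above the young ones, and the difference missed the threshold (1.02 ± 0.29, 95% interval 0.37 to 1.66, adjusted p = 0.0579). The 3 remaining probe sets of Scn8a gave −0.19 to 0.04. The pores of sensory neurons gave −0.33 ± 0.11 (Scn11a, adjusted p = 0.0982) and −0.02 ± 0.11 (Scn10a, dim on all arrays).

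Sodium channel beta subunits modulate gating and act as adhesion molecules. Of their 6 probe sets 1 was called. Probe set 1457144_at of Scn2b, a beta subunit linked to the pore by a disulphide bond, read 6.48, 6.43 and 6.34 at 2 months, 6.09, 6.22, 6.48 and 6.19 at 10 months, and 5.77, 6.07, 5.94 and 5.58 at 18 months. The 18 months samples lay below both earlier ages, and those of 10 months overlapped with the young ones. The fall was 1.49-fold at 18 against 2 months (−0.57 ± 0.13, adjusted p = 0.0271), with −0.41 at 18 against 10 months (unadjusted p = 0.00699, adjusted p = 0.847). The brighter probe sets of Scn2b gave −0.01 ± 0.14 (1436134_at) and −0.17 ± 0.36 (1430648_at). The call was lost in 4 of the 12 fits with a single array left out (highest adjusted p = 0.133). The brightest probe set of Scn3b gave 0.29 ± 0.13 (adjusted p = 0.190), and that of Scn4b, a subunit tied to resurgent current, −0.24 ± 0.49.

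The HCN genes had 1 probe set each and no call. Hcn2, an HCN gene widely expressed in thalamus and midbrain, read 9.35 ± 0.30 at 2 months (SD, n = 3), 9.25 ± 0.61 at 10 months and 9.08 ± 0.43 at 18 months (SD, n = 4 each). The difference at 18 against 2 months was −0.26 ± 0.31 (95% interval −0.95 to 0.43, adjusted p = 0.669). Hcn3 read 9.21 ± 0.16, 9.38 ± 0.30 and 9.23 ± 0.25 at 2, 10 and 18 months, with a difference of 0.02 ± 0.18 (95% interval −0.38 to 0.41).

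At 10 against 2 months 1 member was called, Cacna1b 1460608_at, which is 1.15% of the members against 1.36% of all probe sets (0.524% lower). The median change was −0.09, against −0.01 over all probe sets, and 9 members (10.3%) did not overlap, against 12.6% of all probe sets. At 18 against 10 months no member was called, against 1 of 45037 probe sets (0.00222%), and 7 members (8.05%) had an unadjusted p under 0.05 by limma, against 5.06% of all probe sets. Of the members 5 (5.75%) did not overlap at that step, against 2.73% of all probe sets, and these were Cacna1c 1435730_at, Cacna2d4 1457703_at, Scn11a and Scn2b 1457144_at, lower at 18 months, and Cacna1d 1427974_s_at, higher. The other probe set of Cacna1c gave 0.25 at that step, opposite to the −0.25 of 1435730_at.

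A direct test of whether the change from 2 to 10 months differed from that from 10 to 18 months passed in none of the 87 members (limma, lowest adjusted p = 0.898, 7 or 8.05% with unadjusted p under 0.05, against 5.47% of all probe sets) and in none of the 45037 probe sets. The 9 changes could not be placed in 1 of the intervals with this number of arrays.

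**Figure D3:**
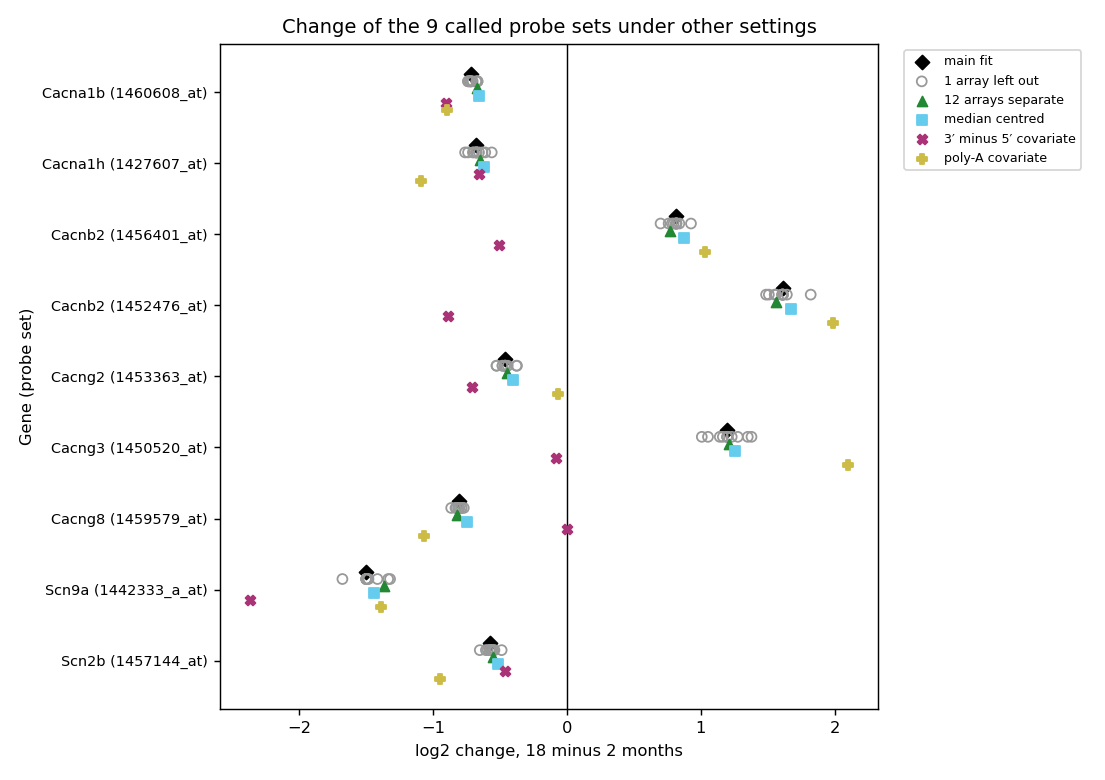
Log2 change at 18 minus 2 months (x axis) of the 9 called probe sets (y axis) under other settings. Black diamonds are the reported fit, grey circles the fits with a single array left out, and coloured marks the 12 arrays counted separately, median centring of the arrays, and the 3′ minus 5′ or poly-A covariate. Leaving out single arrays kept every change on its side of 0, while with the 3′ minus 5′ covariate Cacnb2 moved to −0.51 and −0.89, Cacng3 to −0.08 and Cacng8 to −0.0029.

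The number of called members depended on single arrays. It was 0 without young array 1 (0.939% of all probe sets called) and 2 without young array 2 (3.70%), where n at 2 months was 2. It was 5 without array 4 (5.41%) and 13 without array 3 (11.8%) at 10 months. Leaving out arrays 1 to 4 at 18 months gave 6, 5, 4 and 4, with 4.30% to 4.69% of all probe sets called, so the share over all probe sets moved in the same direction. The 9 called probe sets kept their sign in all 12 of these fits. With the poly-A covariate the values of Cacng2, Cacna1h and Scn2b were −0.063, −1.09 and −0.95, and with the 3′ minus 5′ covariate that of Scn9a was −2.37. Across the 6 called genes with further probe sets that were not called, 12 of 13 such probe sets had the sign of the called one. The exception was the brightest of Scn9a. All 6 genes were called as lower, so this sign was negative, as in 67.8% of the members and 59.6% of all probe sets. Some of these changes were close to 0, such as −0.01 for Scn2b 1436134_at. These probe sets come from the same arrays and are no replication.

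Genes that work with the channels were followed in 4 lists, each gene at its brightest probe set. Of all 18193 genes 5.76% were called as higher and 3.06% as lower at 18 against 2 months, with a median of −0.02. Among 16 sodium channel partners, 2 were higher and 1 lower (median 0.11). Unc80, a subunit of the sodium leak channel complex, rose by 1.02 ± 0.20 (adjusted p = 0.0125) and the ubiquitin ligase Nedd4 by 0.96 ± 0.24 (adjusted p = 0.0364). Nedd4l, a related ligase known to remove sodium channels from the membrane, fell by 0.65 ± 0.13 (adjusted p = 0.0167) and was also called at 10 against 2 months (−0.65, adjusted p = 0.0470), where 0.484% of all genes were called as lower. A second probe set of Nedd4l was called as lower (−0.81) while 2 others gave 0.36 and 0.28 without a call, and the other probe sets of Nedd4 gave −0.53 and −0.09.

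Of 10 symbols listed for HCN channel partners, older and newer symbols of some genes included, 7 were measured, and 2 were higher and none lower (median 0.19). Pex5l, which encodes TRIP8b, the auxiliary subunit that places HCN channels in dendrites, rose by 0.98 ± 0.22 (adjusted p = 0.0231), although its other probe sets gave −0.43, −0.22 and 0.15. The actin cross-linker Flna, an HCN-binding protein, rose by 0.56 ± 0.13 (adjusted p = 0.0274). The HCN genes themselves showed no call at this step.

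Of 26 calcium channel partners 21 were measured, with 4 higher and 2 lower (median −0.03). Among the RIM proteins, some of which tether calcium channels at release sites, Rims2 (0.78 ± 0.19) and Rims3 (0.84 ± 0.21) rose and Rims4 fell (−0.80 ± 0.14). The release genes Snap25 (0.97 ± 0.19) and Syt1 (0.67 ± 0.16) rose, and both are also in the list of general neuronal markers, while Stx1a, which encodes a syntaxin that binds N-type and P/Q-type channels, fell (−1.12 ± 0.29). For Rims2, Snap25 and Syt1 a weaker probe set was called in the opposite direction (−0.93, −0.96 and −0.99). The other probe sets of Rims3, Rims4 and Stx1a gave −0.62, 0.35 and 0.28, also opposite in sign but without a call. The direction of these partners thus differed between probe sets of 1 gene.

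Of 29 genes of calcium stores, pumps, exchangers and buffers 27 were measured, with 1 higher and 3 lower (median −0.03). Orai1 and Stim1, the pore and the store sensor of store-operated calcium entry, fell by 0.77 ± 0.15 (adjusted p = 0.0130) and 0.50 ± 0.10 (adjusted p = 0.0139), and their other probe sets gave −0.26 and −0.20. The sodium-calcium exchanger gene Slc8a3 fell by 0.61 ± 0.14 (adjusted p = 0.0230). The calcium buffer Calb1 rose by 0.70 ± 0.15 (adjusted p = 0.0199), with a weak probe set also called as higher (0.65, mean 4.75). Its remaining probe sets, both brighter than the weak one, gave 0.37 and −0.04 without a call. No gene of these 4 lists was called at 18 against 10 months, where limma called no gene of 18193 at its brightest probe set.

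**Figure D4:**
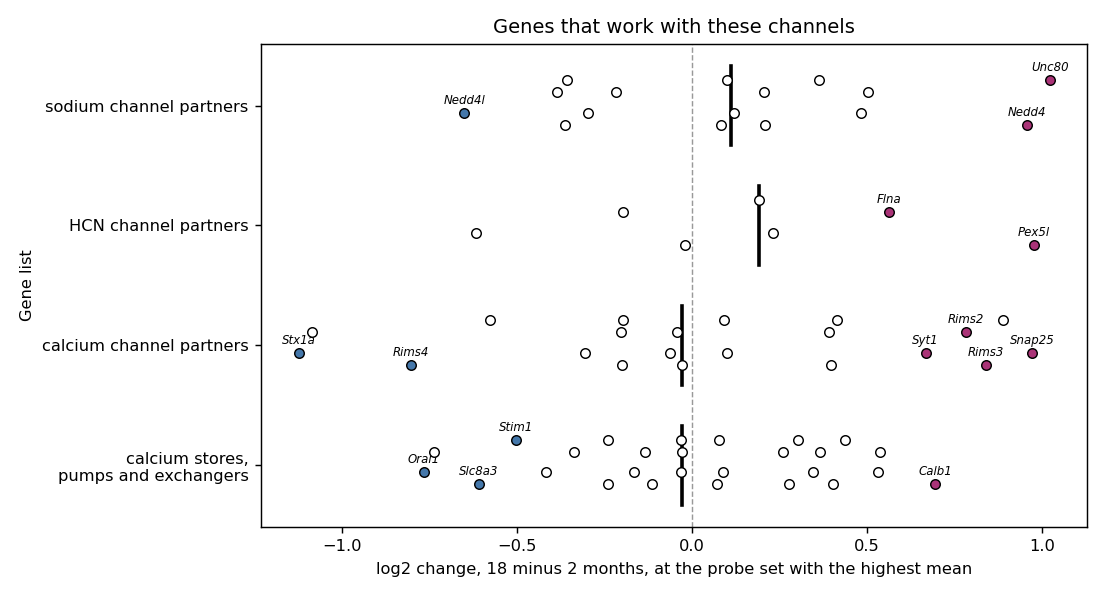
Log2 change at 18 minus 2 months (x axis) of each measured gene of 4 lists of genes that work with the channels (y axis), at the probe set with the highest mean. Purple points were called as higher and blue as lower at 18 months, open points were not called, and black bars are list medians (0.11, 0.19, −0.03 and −0.03 from top to bottom).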

How the data were processed

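RNA was amplified in 2 cycles and hybridised to Affymetrix Mouse Genome arrays by the authors. The authors deposited 1 log2 value per probe set and array, made with RMA, which includes quantile normalisation. Limma 3.4.5 is listed too in the submitters' processing notes. RMA forces all arrays to 1 distribution, and amplification favours the 3′ end of transcripts, so probe sets far from it depend on label length. The number of arrays limits the precision, and values ran from 2.40 to 14.7.

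Of 45101 probe sets, 64 controls were left out. Probe sets were named through the platform annotation (34945 with 1 gene, 932 with several, 9160 with none listed, left unnamed), and 34741 matched the GRCm38.p6 gene table. All ages were fitted together in R 4.3.3 with limma 3.58.1 (lmFit, contrasts.fit, eBayes), with no covariate, and p-values were adjusted over 45037 probe sets by the Benjamini-Hochberg method. The fit was tested on simulated data. Errors are SE unless stated, from 3, 4 and 4 samples at 2, 10 and 18 months. P-values measure the spread between pools of 5 mice.

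Named were every gene with a called probe set, with all its probe sets, every other pore gene at its brightest probe set, the auxiliary genes with the largest rise and fall, and all called partners. Members, lists and the averaging of young arrays 3 and 4 were chosen with earlier results of these data known. Leaving out 10 months array 3 and young array 2 together was added after seeing the data. Other alternatives are given in the closing section.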

Additional observations from a re-analysis of the deposited data

Results flagged for a closer look

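In 2 of 54 groups of 4 samples tested for the named probe sets, 1 sample stood apart from the rest of its age, where chance gives about 5%. For Scn3a 1439204_at, the third sample at 10 months read 9.73, while the others of that age read 8.79 to 8.94 (gap over range 0.842). For Cacna1s 1420442_at, a muscle pore dim on all arrays, the second sample at 10 months read 4.42, while the others read 4.00 to 4.06 (gap over range 0.853).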

How the results depend on the processing

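The number of called members at 18 against 2 months was 9, with 7.46% of all probe sets called. It was 11 with the 12 arrays counted separately (4 higher, 7 lower, 9.9% of all probe sets) and 8 after median centring (7.7%). It was 10 with dim probe sets left out (9.58% of those tested), with only the 2 ages fitted (8.67%) and with no fold threshold (7.53%). An intensity trend and robust prior gave 7 (6.5%). Leaving out 10 months array 3 and young array 2 together, an alternative chosen after seeing the data, gave 10 (8.77%). The count was 0 with the 3′ minus 5′ or the poly-A covariate, where 0% of all probe sets were called. Leaving out single arrays gave 0 to 13 (0.939% to 11.8%). Centring split all called probe sets into 2540 higher and 926 lower, against 2047 and 1312. The number of called genes was 3 at the brightest probe set (8.82% of all genes called) and 8 with any probe set (14.6%). At 10 against 2 months the count of 1 (1.36% of all probe sets called) became 2 with 12 separate arrays (2.17%) or with dim probe sets left out (1.65%). It became 0 with the 3′ minus 5′ covariate (0%), the poly-A covariate (0.00444%) and the replicate block (0.00666%). The count was also 0 with only the 2 ages (0%), with the trend (0.482%) and with both arrays left out (0.00666%). Single arrays left out gave 0 to 4 (0.00222% to 2.79%). At 18 against 10 months every one of these fits gave 0, with at most 0.00444% of all probe sets called.

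Replicate numbers did not pair the samples: correlations of same-numbered deviations ran from −0.611 to 0.431, 4 of 12 were above 0.1, and 1 sample correlated best with its own number. The replicate block on 12 arrays gave 8 members at 18 against 2 months (5.66% of all probe sets called). It gave 0 at 10 against 2 months (0.00666%) and at 18 against 10 months (0%).

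Signs changed with the 3′ minus 5′ covariate for Cacng3 (−0.082), Cacnb2 (−0.89 for 1452476_at and −0.51 for 1456401_at), Scn8a (−0.82), Cacna2d1 (−0.44), Scn2a (−0.049), Cacna1a (0.092), Cacna1d (0.29), Scn3a (0.59), Scn10a (0.15), Scn11a (0.037) and Hcn2 (0.077). They changed with the poly-A covariate for Hcn2 (0.42), Cacna1g (0.10) and Scn10a (0.10), after centring for Cacna1d (0.029), Scn3a (0.0092) and Scn10a (0.045), and for Hcn3 with 12 separate arrays (−0.031), with the replicate block (−0.031) and with both arrays left out (−0.026). With single arrays left out, Cacna1s ran from −0.023 to 0.085, Cacna1d from −0.076 to 0.022, Scn7a from −0.14 to 0.039, Scn3a from −0.25 to 0.14, Scn10a from −0.034 to 0.025 and Hcn3 from −0.055 to 0.14. The median of the calcium channel pores was −0.23 after centring, against 0.004 over all probe sets. With the 3′ minus 5′ covariate it was −0.28, against 0.0355. With the poly-A covariate it was −0.042, against −0.039 over all probe sets. In that fit 10 of 19 pore probe sets (52.6%) were negative, against 54.4% of all probe sets. The median of the beta subunits, 0.12, was −0.37 and −0.09 with these covariates.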
